A study of Mus musculus with 2 samples.

Results

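The genes described here are the mouse zinc finger genes whose symbol is Zfp followed by a number, without Zfp36, compared between LSK cells labelled p53 KO and LSK cells labelled Utx/p53 DKO. The table held 335 such symbols on 422 transcripts. Each was represented by its transcript of highest mean RPKM (reads per kilobase of transcript, scaled to the library's read total) over both libraries. With the mean limited to 1 RPKM or more, 266 were kept, out of 11356 genes that met the same limit. The other 69 lay under it. The members were therefore chosen by symbol and by their mean level in these same libraries, and the comparison of levels between the libraries is given as a description with no test.

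LSK cells are bone marrow cells without lineage markers that carry c-Kit and Sca-1, and they include the blood stem cells and early multipotent progenitors. They were sorted from C57BL/6 mice aged 8 weeks, and per the labels both genotypes carried the p53 knockout (p53 KO): the controls carried it alone, and the double knockout (Utx/p53 DKO) was also a knockout of Utx, the histone H3 lysine 27 demethylase encoded by Kdm6a. There was 1 library per genotype, and the number of mice behind each library, any Cre driver and the deleted exons are not given in the sources used here. Thus the spread between mice is unknown, and genotype, mouse and library preparation cannot be told apart.

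Most proteins of this kind bind DNA with zinc fingers, short loops in which a pair of cysteines and a pair of histidines hold a zinc ion. Many carry a KRAB box near their start, which recruits the corepressor Trim28 (KAP1) and, through it, the histone H3 lysine 9 methyltransferase Setdb1 and heterochromatin proteins. KRAB zinc finger proteins are best known for silencing transposable elements and for protecting imprints, and their genes are often arranged in tandem clusters. Members without a KRAB box include activators, adaptors of chromatin complexes and proteins that bind RNA.

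The finger that gives the genes their name was read from the coding sequences of GENCODE M21 on the build GRCm38, and is shown for the genes that the results below turn on: Zfp599 and Zfp184, with the largest decreases, Zfp266 and Zfp146, abundant members with large decreases, and Zfp78, 1 of the 2 members that were at least 2-fold higher. Each run is the first finger of the protein with a canonical linker after it, 78 bases or 26 codons, 5′ to 3′ on the coding strand. Capitals mark the codons of the zinc-binding cysteines and histidines.
Zfp599: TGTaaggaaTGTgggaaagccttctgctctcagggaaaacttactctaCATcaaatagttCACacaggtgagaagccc
Zfp184: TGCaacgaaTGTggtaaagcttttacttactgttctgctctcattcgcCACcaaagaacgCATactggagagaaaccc
Zfp266: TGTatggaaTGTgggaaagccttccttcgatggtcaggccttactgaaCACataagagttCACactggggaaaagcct
Zfp146: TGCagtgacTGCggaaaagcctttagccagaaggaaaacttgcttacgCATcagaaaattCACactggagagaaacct
Zfp78: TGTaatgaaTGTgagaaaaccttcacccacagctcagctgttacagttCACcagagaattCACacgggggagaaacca
These runs lie in the last exon of their transcript: Zfp599 at chr9:22250103-22250180 on the minus strand (exon 5), Zfp184 at chr13:21958732-21958809 on the plus strand (exon 6), Zfp266 at chr9:20499602-20499679 on the minus strand (exon 9), Zfp146 at chr7:30162319-30162396 on the minus strand (exon 2) and Zfp78 at chr7:6378571-6378648 on the plus strand (exon 4). Pairs of these fingers shared between 56.4% (Zfp266 and Zfp146) and 69.2% (Zfp599 and Zfp266) of their bases. Searched over the whole family, the finger pattern was found in 259 of the 264 members with a coding sequence, with a median of 10 fingers and at most 36. It was not found in Zfp259, Zfp330, Zfp703, Zfp750 and Zfp839.

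The KRAB A box is shown for the same genes, except Zfp146, in which the pattern was not found, because the presence of the box divides the family below. Each run is 90 bases or 30 codons of coding sequence, and capitals mark the codons of the glutamate-tryptophan pair typical of the box.
Zfp599: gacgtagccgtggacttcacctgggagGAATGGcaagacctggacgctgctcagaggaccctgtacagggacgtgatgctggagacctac
Zfp184: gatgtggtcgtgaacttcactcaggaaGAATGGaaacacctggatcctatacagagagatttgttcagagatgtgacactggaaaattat
Zfp266: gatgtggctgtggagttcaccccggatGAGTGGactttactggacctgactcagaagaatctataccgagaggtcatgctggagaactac
Zfp78: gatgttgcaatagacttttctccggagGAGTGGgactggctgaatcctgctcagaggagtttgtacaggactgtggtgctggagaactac
The boxes lie upstream of the fingers in a separate exon: Zfp599 at chr9:22258064-22258153 on the minus strand (exon 2), Zfp184 at chr13:21949678-21949767 on the plus strand (exon 4), Zfp266 at chr9:20505071-20505160 on the minus strand (exon 6) and Zfp78 at chr7:6373145-6373234 on the plus strand (exon 3). A box was found in 147 members and not found in 117. Below, members without a box are those in which the pattern was not found, and the pattern can miss a box. Zfp783 and Zfp862 matched no coding sequence and were left out of this split.

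The family was mostly lower in the DKO library. Of the 266 members, 233 (87.6%) had a log2(RPKM + 1) below that of the p53 KO library and 33 above it. Of all genes, 65.2% were below. The members' median difference, DKO minus p53 KO, was -0.60 with quartiles of -0.91 and -0.25. The median level was 5.35 RPKM in the p53 KO library, the control here, and 3.35 RPKM in the DKO library. A gene was counted as higher or lower when it differed by at least 2-fold on the log2(RPKM + 1) scale. By that rule 53 members (19.9%) were lower, where 13.5% of all genes were, and 2 members (0.752%) were higher, where 6.6% of all genes were. The median difference of all genes was -0.24, and 203 members (76.3%) lay below it. The differences were also narrower than over all genes, with an SD of 0.529 against 0.867.

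**Figure D1:**
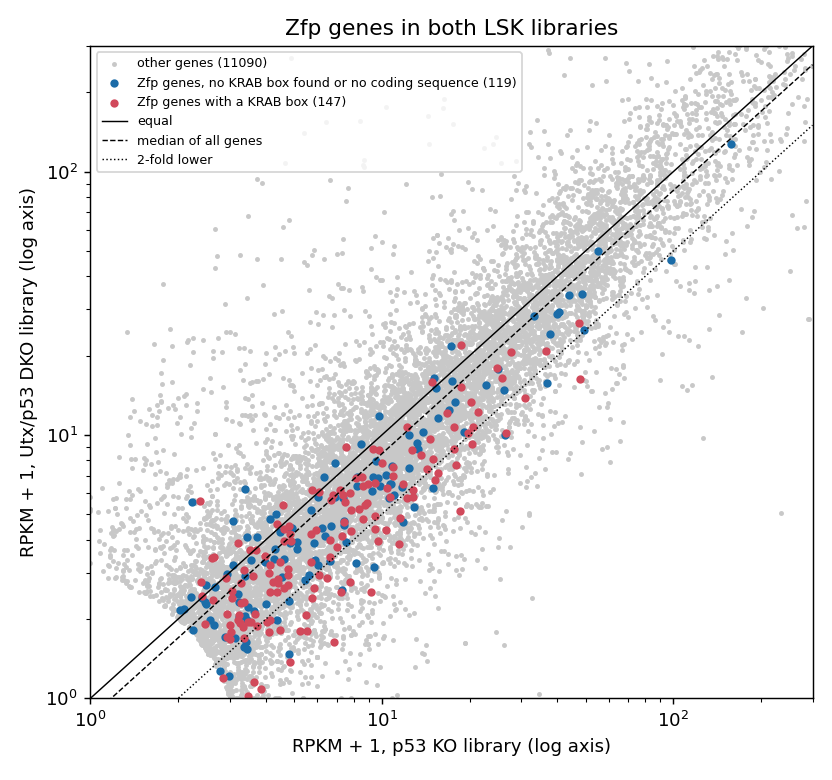
RPKM + 1 of each gene in the p53 KO library (horizontal, log axis) and in the Utx/p53 DKO library (vertical, log axis), with the solid line at equality, the dashed line at the median of all genes and the dotted line at 2-fold lower. Zfp genes with a KRAB box are red, other Zfp genes blue and other genes grey, and genes beyond 300 are not drawn. Below the line of equality lie 233 of the 266 Zfp genes (87.6%) and 65.2% of all genes.

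The scaling sets how much of this is read as a decrease. The 10 most abundant genes made up 8.17% of all RPKM of the control and 20% of the DKO library, and the normalization constants in the header of the authors' table shift every ratio by 0.602 on the log2 scale relative to RPKM. With those constants the median of the members was -0.12 and that of all genes 0.28, and 152 members were below 0 and 114 above. The members called lower were then 18 (6.77%), where 6.27% of all genes were, and those called higher were 4 (1.5%), where 16.5% were. Relative to the median of all genes, 30 members (11.3%) were lower, where 8.76% of all genes were, and 3 (1.13%) were higher, where 9.63% were. The share of members called lower was therefore close to the background with the constants, and the share called higher was under it on each scale. The distance of the members' median from the median of all genes was -0.36 with RPKM and -0.40 with the constants.

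Ranks do not depend on the scaling. Among the 11356 genes, the median member stood at percentile 32.8 of the control and at percentile 27.6 of the DKO library, and 194 members had a lower rank in the DKO library against 72 with a higher one. In the authors' deposited table, the GFOLD value, a conservative log2 ratio that is set to 0 for small differences, was negative for 112 members (42.1%), 0 for 85 and positive for 69 (25.9%). Over all genes it was negative for 22.9% and positive for 54.5%. Summed over the members, 2510 RPKM (0.695% of the total) were found in the control and 1576 RPKM (0.337%) in the DKO library.

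Counting error was small for most members. Whole reads could be recovered for 256 members, with medians of 302 (control) and 228 reads (DKO). The exact (Clopper-Pearson) 95% interval of the RPKM ratio lay below 1 for 198 of them, above 1 for 13 and across 1 for 45. The same count over all genes is not given here. Since 65.2% of all genes were below 0 with RPKM, these counts hold the shift of the scale and are not particular to the family. These intervals cover counting error only, since amplified reads without molecular identifiers are not independent molecules. The limit of 1 RPKM on the mean let in 37 members that were under 1 RPKM in the DKO library and at or over it in the p53 KO library, and none of the opposite kind. Of the 53 members called lower, 19 were under 1 RPKM in the DKO library. Such genes passed through the p53 KO library and had to differ.

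Library composition moved together with these values. Of 16 granulocyte and monocyte markers, 14 were at least 2-fold higher and 2 lower in the DKO library, and their summed level was 6365 RPKM (1.76% of the total) in the control and 71705 RPKM (15.3%) in the DKO library. Of 11 markers of LSK and stem cells, 8 were lower and 0 higher, with sums of 959 and 401 RPKM. All 9 measured erythroid markers of 11 were lower (sums of 1744 and 243 RPKM), as were all 9 measured B-lymphoid markers of 10 (532 and 56.6 RPKM). Of the erythroid markers under the limit, Epor was at 0.192 RPKM in the control and 0 in the DKO library. Klf1 went the other way, at 0.61 RPKM (16 reads) and 1.08 RPKM (33 reads). T and NK cell markers had sums of 38.8 and 104 RPKM, with 6 of 8 measured genes higher and 1 lower. Kdm6a itself was at 5.32 and 1.26 RPKM, a ratio of 0.236 (0.193 to 0.287). Trp53, whose loss both labels state, was at 19.4 RPKM (587 reads) and 12.9 RPKM (456 reads), so its knockout is not seen in these whole-transcript values, and no wild-type library was analysed here. The part of these shifts in the values of the Zfp genes was not tested, and in bulk samples fewer cells of a type and less RNA per cell cannot be told apart.

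The 15 members with the largest decreases lay on 8 chromosomes, and a KRAB box was found in 12 of them. Pairs of RPKM values here give the control first. Zfp599 was at 5.83 RPKM (356 reads) in the control and 0.632 RPKM (45 reads) in the DKO library. It was 9.23-fold lower (95% interval 6.75 to 12.9), a log2(RPKM + 1) difference of -2.07, which was the largest decrease of the family. Zfp184 was at 8.21 and 1.54 RPKM and 5.32-fold lower (4.19 to 6.84). Zfp873 was at 17.5 and 4.15 RPKM and 4.22-fold lower (3.59 to 4.98). The intervals of these 3 KRAB genes all lay beyond 3-fold.

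Of the 15 genes, 8 were under 1 RPKM in the DKO library, Zfp599 among them. Zfp951 was at 2.84 and 0.0864 RPKM. Zfp658 was at 3.84 and 0.371 RPKM (222 and 25 reads). Zfp558 was at 2.64 and 0.157 RPKM (173 and 12 reads), 16.8-fold lower with an interval of 9.38 to 33.2. Genes as low as these vary widely in fold because few reads remain. Zfp534 had 122 reads in the control and 1 read in the DKO library (2.48 and 0.0174 RPKM). It was 142-fold lower, with a counting interval of 25.1 to 5665. Of its transcript's 100-base windows, 40.85% also occur in transcripts of other genes, so its reads may be split or shared in the authors' counting. Zfp606 (4.52 and 0.805 RPKM), Zfp607 (4.25 and 0.80 RPKM) and Zfp2 (3.79 and 0.479 RPKM) were also under 1 RPKM there, and no KRAB box was found in Zfp2.

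The best measured large decrease was that of Zfp266, a KRAB gene among the 10 most abundant members. It was at 46.8 RPKM (5019 reads) in the control and 15.2 RPKM (1906 reads) in the DKO library, 3.07-fold lower with an interval of 2.91 to 3.24. Zfp943 was at 10.4 and 2.85 RPKM and Zfp551 at 6.26 and 1.53 RPKM, and a KRAB box was found in both. No box was found in Zfp668, at 8.38 and 2.15 RPKM, or in Zfp296, at 6.27 and 1.57 RPKM. All 15 genes stayed below 0 with the authors' gfold constants, under which Zfp599 was at -1.80 and Zfp266 at -0.99 on the log2 scale.

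**Figure D2:**
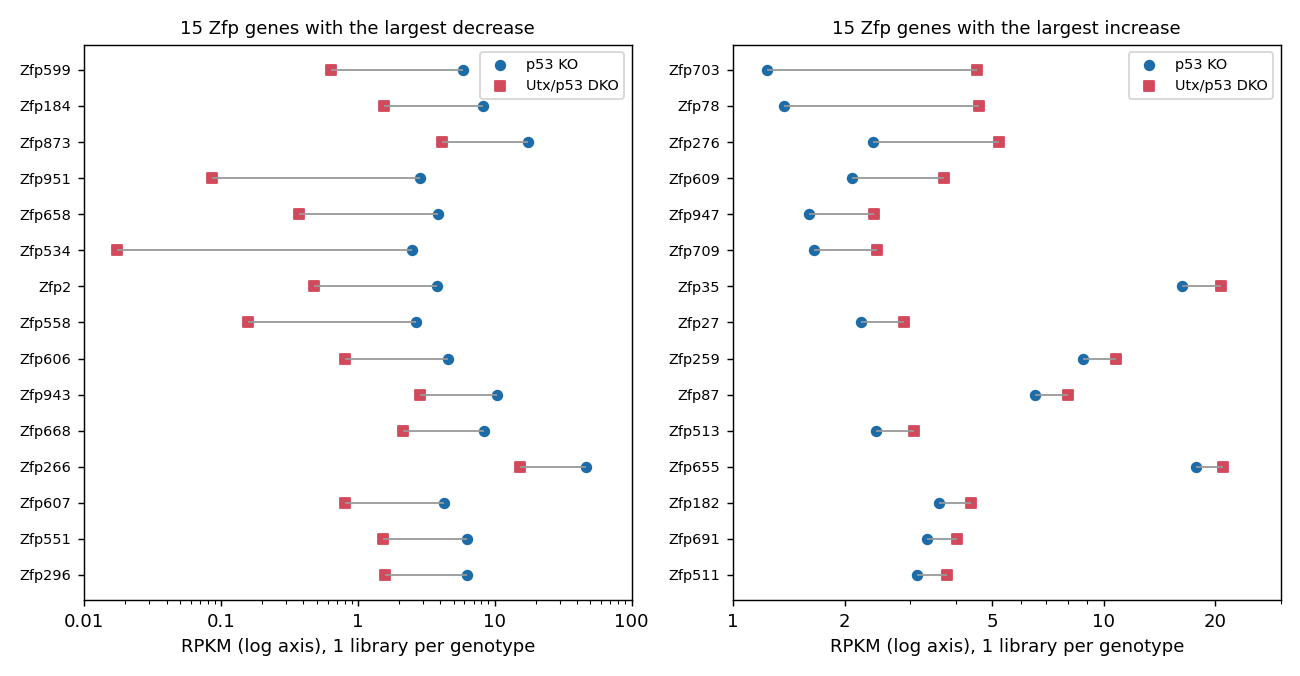
RPKM (horizontal, log axis, with a different range in each panel) in the p53 KO (blue circles) and Utx/p53 DKO library (red squares) of the 15 Zfp genes with the largest decrease and the 15 with the largest increase of log2(RPKM + 1), 1 library per genotype. The decreases reach from 5.83 to 0.632 RPKM for Zfp599, while beyond Zfp703 and Zfp78 the increases are small.

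Only Zfp703 and Zfp78 were at least 2-fold higher in the DKO library with the RPKM scale. Zfp703, a corepressor of the NET family in which the finger pattern was not found, was at 1.24 RPKM (67 reads) and 4.54 RPKM (287 reads), 3.67-fold higher with an interval of 2.81 to 4.87. Zfp78, which has a KRAB box, was at 1.37 RPKM (109 reads) and 4.61 RPKM (428 reads), 3.37-fold higher with an interval of 2.72 to 4.19. Both were near the lower limit of the family in the control and above its median in the DKO library. Zfp276 followed at 2.39 and 5.21 RPKM, a ratio of 2.18 (1.85 to 2.58) that did not reach 2-fold after 1 was added to each RPKM. Zfp609 was at 2.09 and 3.70 RPKM, a ratio of 1.77 (1.54 to 2.03).

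The other 11 of the 15 largest increases differed by at most 0.38 on the log2(RPKM + 1) scale. Zfp947 was at 1.61 and 2.40 RPKM, and Zfp709 at 1.65 and 2.45 RPKM. Better measured were Zfp35, at 16.3 and 20.7 RPKM with a ratio of 1.27 (1.16 to 1.39), and Zfp655, at 17.7 and 21 RPKM with a ratio of 1.19 (1.06 to 1.33). Of all 15, the interval of the ratio lay above 1 for 12, and it spanned 1 for Zfp511, Zfp513 and Zfp691. A KRAB box was found in 7 of the 15.

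All 10 members with the highest mean were lower with the RPKM scale, and a KRAB box was found in 2 of them. Zfp207, whose protein (BuGZ) loads the checkpoint protein Bub3 onto kinetochores, was the most abundant, at 156 and 126 RPKM. Zfp422 was at 97.4 RPKM (5269 reads) and 45.2 RPKM (2849 reads), 2.16-fold lower with an interval of 2.06 to 2.26. Zfp263 was at 48.2 and 24.1 RPKM and 2.00-fold lower (1.88 to 2.13), which after adding 1 to each RPKM gave -0.97. Zfp187, now named Zscan26, was the least different of the 10, at 54.0 and 49.0 RPKM. Zfp637 was at 47.6 and 33.2 RPKM, Zfp330 at 42.7 and 32.9 RPKM and Zfp386, a KRAB gene, at 46.3 and 25.6 RPKM. Zfp706 (39.4 and 28.2 RPKM) and Zfp191 (39.0 and 27.9 RPKM, now named Zfp24) had nearly equal levels and nearly equal differences, both -0.47. With the gfold constants the sign stayed negative for Zfp422, Zfp263, Zfp386 and Zfp266 and turned positive for the other 6 of the 10.

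Members in which a KRAB box was found were lower than those in which it was not found. Of the 147 with a box, 36 (24.5%) were at least 2-fold lower and 1 was higher, where 13.5% and 6.6% of all genes were, and their median log2 difference was -0.69. Of the 117 in which no box was found, 17 (14.5%, near the share of all genes) were lower and 1 was higher, with a median of -0.48. This group may hold KRAB genes that the pattern missed. The median levels started alike, at 5.46 RPKM with a box and 5.36 RPKM without in the p53 KO library, and were 3.12 and 3.65 RPKM in the DKO library. Below the median of all genes lay 81.0% of the KRAB members and 71.8% of the others. With the gfold constants 14 (9.52%) and 4 (3.42%) were lower, where 6.27% of all genes were. The medians were then -0.23 and 0.0044, so the direction of the members without a box depended on the scaling. With a stricter box pattern the medians were -0.69 and -0.51, but the shares called lower were nearly alike, at 20.7% and 19.6%. The difference in called shares thus depended on the pattern. The split was not tested, because the members come from 1 pair of libraries.

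KRAB genes outside the naming rule went the same way. In the 56 measured KRAB genes with other symbols, 0 were at least 2-fold higher and 21 (37.5%) lower, where 6.6% and 13.5% of all genes were, with a median of -0.79 at levels of 6.27 and 2.64 RPKM, and 53 (94.6%) lay below the median of all genes. With the gfold constants 12 (21.4%) were lower, where 6.27% of all genes were, and their median was -0.37. Not all of the 56 are separate measurements. Gm8898 and Gm14431 each had 296 reads in the control and 58 in the DKO library. 0610010B08Rik and Gm14434 had 1261 and 1260 reads in the control and 595 each in the DKO library. Both pairs are among the 21 lower genes. The positions of the 56 genes were not examined, and chromosome 2, on which all genes had a median of -0.63, was not left out here. Of the 110 other genes with at least 3 fingers and no KRAB box, 5 (4.55%) were higher and 24 (21.8%) lower, where 6.6% and 13.5% of all genes were, with a median of -0.48. With the constants 9 (8.18%) were higher and 7 (6.36%) lower, where 16.5% and 6.27% of all genes were, and the median was 0.02. Their share called lower was thus near that of all genes on this scale. The largest decreases among the 56 were seen in Gm13051 (8.86 and 0.319 RPKM) and Gm14391 (8.18 and 0.945 RPKM), and the family member with a letter in its name, Zfp354c, was at 3.75 and 0.383 RPKM. These 3 genes were chosen after their values were seen.

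**Figure D3:**
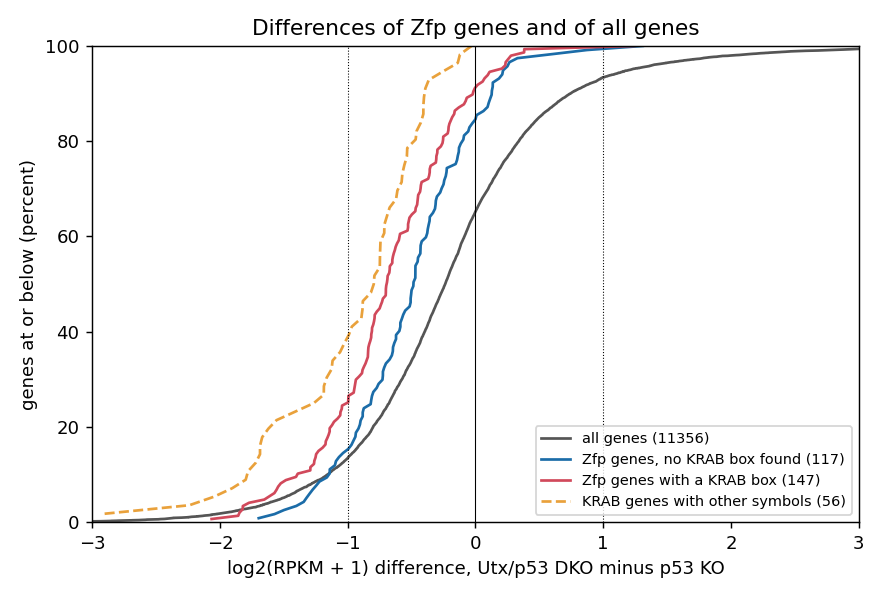
Cumulative share of genes (vertical, percent) at or below each log2(RPKM + 1) difference, Utx/p53 DKO minus p53 KO (horizontal), for all genes, Zfp genes with and without a KRAB box and KRAB genes with other symbols. Dotted lines mark 2-fold; the median of Zfp genes with a box is -0.69, of those without -0.48 and of all genes -0.24.

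The number of fingers moved with the difference as well. Members with 1 to 6 fingers (57 genes) had a median of -0.45, those with 7 to 12 (122 genes) -0.67 and those with 13 or more (80 genes) -0.71. Within the members without a KRAB box, the median was -0.43 with up to 6 fingers (55 genes) and -0.65 with 7 or more (62 genes). Within the KRAB members it was -0.67 with up to 12 fingers (86 genes) and -0.72 with 13 or more (61 genes). Finger number and the KRAB box go together across the family, and so do finger number and level, since the genes with few fingers were the more abundant (8.31 RPKM in the p53 KO library against 4.96 and 4.75 RPKM).

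The family is expressed at low levels, and low genes were lower in the DKO library in general. The median of the mean RPKM was 4.19 for the members and 9.0 for all genes, and 80.1% of the members were under 10 RPKM against 53.2% of all genes. At 1 to 3 RPKM the members' median difference was -0.63 and that of all genes -0.37, with 20.2% and 19.8% called lower, nearly the same share. At 3 to 10 RPKM the medians were -0.59 and -0.32, with 20.2% and 15.5% called lower. At 10 to 30 RPKM they were -0.60 and -0.22, with 18.6% of 43 members and 11.0% of all genes called lower. At 30 RPKM and over they were -0.49 for 10 members and 0.01 for all genes, with 20% and 7.09% called lower. On the log2(RPKM + 1) scale the members' median thus hardly varied with the level while that of all genes rose towards 0. Adding 1 understates the change of low genes most, so similar medians are not similar ratios. The members' median levels were 2.4 and 1.32 RPKM in the lowest range and 47.2 and 30.5 RPKM in the highest, control first.

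**Figure D4:**
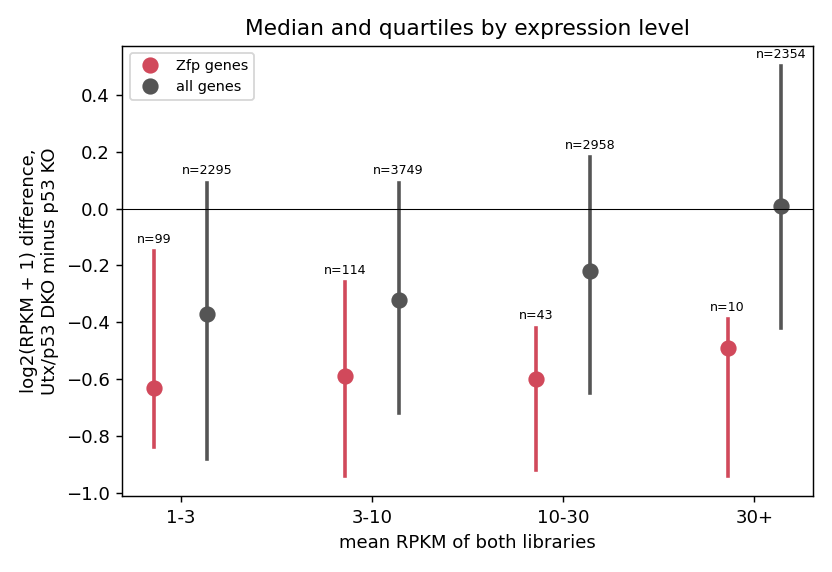
Median (points) and quartiles (bars) of the log2(RPKM + 1) difference, Utx/p53 DKO minus p53 KO (vertical), of Zfp genes (red) and all genes (grey) in 4 ranges of mean RPKM (horizontal), with the number of genes above each bar. The Zfp medians lie between -0.63 and -0.49, and those of all genes between -0.37 and 0.01.

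The KRAB split had the same order within each of these ranges that held more than 10 members. The medians with and without a box were -0.68 and -0.38 at 1 to 3 RPKM, -0.67 and -0.55 at 3 to 10 RPKM, and -0.76 and -0.45 at 10 to 30 RPKM. Transcript length gave a similar picture: at 2000 to 3500 bases the members' median was -0.66 and that of all genes -0.33, and at 3500 bases and over they were -0.63 and -0.40. Under 2000 bases, where 22 members fell, they were -0.39 and -0.02.

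The role lists begin with the KRAB genes with described targets, which had the lowest median of the 5 lists on both scales. Of 9 measured of 12 listed, 0 were higher and 4 were lower with RPKM, where 6.6% and 13.5% of all genes were, and the median was -0.94. Of the 9, 0 were lower with the gfold constants, and the median was then -0.40. Zfp57, which binds methylated imprinting control regions, was at 3.08 RPKM (142 reads) and 0.782 RPKM (42 reads), 3.94-fold lower (2.78 to 5.70). Zfp445, which shares that task, was at 26.8 and 19.7 RPKM, a difference of -0.43 that turned positive with the gfold constants. Zfp932 was at 25.7 and 9.19 RPKM and Zfp708, which binds a retroelement, at 5.46 and 1.87 RPKM. Every 100-base window of Zfp708 and 26.89% of those of Zfp932 also occur in transcripts of other genes, so these values may hold reads of related genes. Zfp809, known for silencing murine leukaemia proviruses, was at 8.35 and 7.87 RPKM, and Zfp568, a repressor of a placental Igf2 transcript, at 2.36 and 1.33 RPKM. Zfp961 was at 13.2 and 6.44 RPKM and Zfp90 at 7.96 and 5.53 RPKM, and Zfp266 has been given above. Zfp30, Zfp69 and Zfp819 were under a mean of 1 RPKM.

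Among factors known from blood cells, 9 of 10 found were measured, with 0 higher and 1 lower (11.1%, near the share of all genes) and a median of -0.48. With the gfold constants the median was 0.00089 and the calls turned round, to 1 higher (Zfp609 at 1.1) and 0 lower (Zfp608 at -0.73). Zfp608, described as a repressor of the recombination genes in thymocytes, was the gene called lower with RPKM, at 14 RPKM (1458 reads) and 5.30 RPKM (646 reads), 2.63-fold lower with an interval of 2.40 to 2.89. Its paralogue Zfp609 was among the increases above, so the pair differed in direction with both scales. Zfp521, an early haematopoietic factor that opposes Ebf1 in the B lineage, was at 2.12 and 0.694 RPKM (223 and 85 reads). Zfp335, which is needed for mature T cells, was at 4.61 and 1.93 RPKM.

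Other blood factors differed less. Zfp410, an activator of Chd4 and thereby a repressor of fetal globin genes, was at 21.8 and 14.4 RPKM. Zfp91, a ubiquitin ligase of the noncanonical NF-κB pathway, was at 14.3 and 14.1 RPKM. Zfp318, which is needed for IgD expression on B cells, was at 3.93 and 3.43 RPKM. The ratio of Zfp91 was thus close to 1 in spite of the lower median of the family. Zfp384, whose human counterpart is a fusion partner in acute leukaemia, was at 1.24 and 0.82 RPKM, and Zfp467 at 1.66 and 0.903 RPKM. Zfp423 was under the limit, with 9 reads in the control and 0 in the DKO library.

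Factors known from GC-rich promoters and stem cells had a median of -0.76 over 6 measured genes of 7, with 2 lower and 0 higher, where 13.5% and 6.6% of all genes were. With the gfold constants the median was -0.24 and 1 was lower. Zfp296, given above, is expressed in embryonic stem cells, and Zfp219, the other lower gene, was at 3.78 and 1.33 RPKM. Zfp217, a partner of the corepressor CtBP, was at 10 and 4.89 RPKM and Zfp281, which binds GC-rich promoters in stem cells, at 8.86 and 5.41 RPKM. Zfp148 was at 12.9 and 9.30 RPKM and Zfp143, an activator of small nuclear RNA genes, at 8.55 and 6.95 RPKM. All 6 were below the median of all genes with the gfold constants too. Zfp42 (Rex1), a marker of embryonic stem cells, had 2 reads in the control and 0 in the DKO library.

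Partners of chromatin adaptors had a median of -0.76 over 6 measured genes, with 1 lower and 0 higher, where 13.5% and 6.6% of all genes were. The median was -0.28 and 0 were lower with the gfold constants. Zfp532 (1.79 and 0.265 RPKM), Zfp592 (4.88 and 2.34 RPKM) and Zfp687 (3.87 and 3.45 RPKM) form a complex with Zmynd8, and they differed by -1.14, -0.82 and -0.13 on the log2(RPKM + 1) scale. Zfp644, a partner of the H3 lysine 9 methyltransferases G9a and GLP, was at 18.2 RPKM (1766 reads) and 9.28 RPKM (1052 reads). Zfp451, a SUMO ligase, was at 6.41 and 3.56 RPKM, and Zfp516 at 1.94 and 1.95 RPKM. The members of the same complex therefore did not have the same ratio, and Zfp532 entered only through its p53 KO value.

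Members that act on RNA, ribosomes or the spindle had the highest median of the 5 role lists on both scales. Of 12 measured, 0 were at least 2-fold higher or lower, and their median was -0.34, close to the -0.24 of all genes, and 0.21 with the gfold constants. Zfp598, the ubiquitin ligase of collided ribosomes, was at 7.50 and 8.20 RPKM, and Zfp622, a maturation factor of the large ribosomal subunit, at 5.34 and 5.93 RPKM. Zfp830 was at 14.1 and 15.5 RPKM, and Zfp259 (Zpr1) at 8.79 and 10.8 RPKM. These 4 genes were higher in the DKO library with both scales. With RPKM, however, the interval of the ratio spanned 1 for Zfp598 (0.961 to 1.25) and Zfp622 (0.939 to 1.31). It began at 1.0 for Zfp830 (1.0 to 1.21) and lay above 1 for Zfp259 (1.08 to 1.39). Zfp593 was at 2.40 and 1.90 RPKM and Zfp277 at 16 and 11.4 RPKM. Zfp346, which binds double-stranded RNA, was at 5.71 and 3.50 RPKM, and Zfp326, of the complex that couples splicing to elongation, at 9.75 and 5.49 RPKM. Zfp106, which binds RNA, had the largest decrease of this list, at 10.7 and 5.33 RPKM, a difference of -0.88.

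With RPKM, the corepressor machinery that KRAB proteins recruit was mostly lower by less than 2-fold. With the gfold constants 12 of its genes were below 0 and 15 above. Of 28 listed genes 27 were measured, 0 were at least 2-fold higher and 4 (14.8%) lower, near the share of all genes, and the median was -0.55 with RPKM and 0.02 with the gfold constants. Trim28 was at 47.3 RPKM (2620 reads) and 31.0 RPKM (2003 reads), and Setdb1 at 8.37 and 4.64 RPKM. The 4 lower genes were the heterochromatin protein gene Cbx1 (65.8 and 20.1 RPKM), the H3.3 chaperone gene Daxx (27.8 and 12.1 RPKM) and the de novo DNA methyltransferase genes Dnmt3a (11.6 and 2.97 RPKM) and Dnmt3b (10.9 and 2.69 RPKM). The other genes of the heterochromatin protein family, Cbx3 (533 and 384 RPKM) and Cbx5 (63.6 and 55.0 RPKM), differed less. Genes near equality were Hdac1 (34.9 and 34.9 RPKM), Sumo2 (612 and 621 RPKM), Mphosph8 (16.3 and 17.0 RPKM) and Suv39h1 (28.6 and 27.2 RPKM). Suv39h2 (1.32 and 2.00 RPKM) and H3f3a (627 and 768 RPKM) were the highest relative to the p53 KO library.

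The genes sit in tandem runs, and position was examined with gene order from the RefSeq table of GRCm38.p6, which placed 262 members. Chromosome 7 held 65 members, with a median difference of -0.64 against -0.36 for all genes of that chromosome, chromosome 17 held 36 (-0.60 against -0.25) and chromosome 13 held 25 (-0.79 against -0.25). On chromosome 15 the 8 members had a median of -0.06 against -0.14 for all genes there. On chromosome 2, where all genes had a median of -0.63, the 11 members had a median of -0.88. All 11 were below the median of all genes, as were 71.9% of all genes on that chromosome. By the 2-fold rule 18.2% of these members were lower, where 26.5% of all genes of the chromosome were. Without chromosome 2, 51 of 255 members (20%) were lower, where 12.4% of all genes were, and the medians were -0.58 and -0.21.

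In 14 runs of at least 4 neighbouring members, with at most 2 other coding genes between neighbours, lay 91 members. Their median was -0.60, and that of the 169 other placed members with a known order was -0.62. Every run had a median below that of all genes, from -0.82 to -0.28. The tightest was a run of 7 genes on chromosome 6, from Zfp212 (-0.52) to Zfp282 (-0.21), with an SD of 0.13. The run of 13 genes on chromosome 7 that holds Zfp146 (25.4 and 9 RPKM) reached from -1.40 for that gene to 0.28 for Zfp27, with a median of -0.82. The run of 14 genes on chromosome 17 reached from -1.57 (Zfp943) to 0.38 (Zfp947). Zfp78 stood in a run with Zfp667 (3.60 and 1.63 RPKM), Zfp583 (2.05 and 1.56 RPKM) and Zfp28 (1.47 and 0.92 RPKM). These neighbours had lower RPKM in the DKO library, but the interval of the ratio of Zfp583 (0.562 to 1.03) spanned 1. Its difference of -0.25 was close to the -0.24 of all genes.

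**Figure D5:**
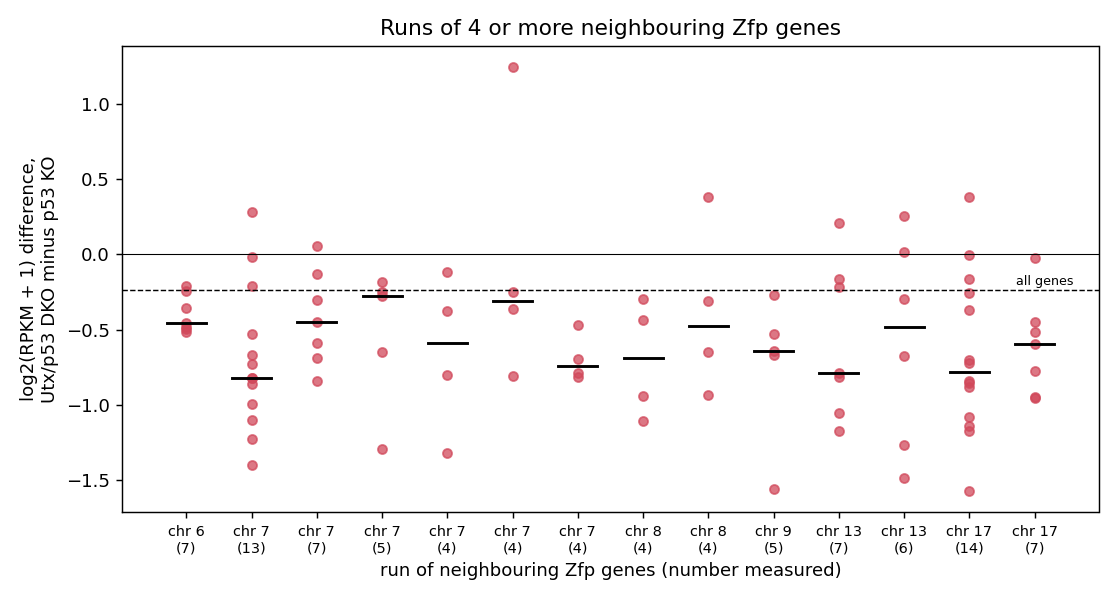
Log2(RPKM + 1) difference, Utx/p53 DKO minus p53 KO (vertical), of each Zfp gene in 14 runs of 4 or more neighbouring members, grouped by chromosome with the number of genes in brackets (horizontal). Black bars are medians of the runs, which lie between -0.82 and -0.28, and the dashed line is the median of all genes at -0.24.

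The promoters of the family, taken from RefSeq on GRCm38.p6 as 250 bases before to 50 after the start, matched 215 members. They held a median of 14 CpG dinucleotides, against 21 in measured genes and 7 in all 27025 promoters, and the KRAB members held 11 against 20 in members without a box. The 45 lower members held 13 and the other 170 held 15. A GC box (GGGCGG on either strand) was found in 48.4% of the members, 63.6% of measured genes and 35.9% of all promoters, and in 40% of the lower members against 50.6% of the others. CCAAT was found in 47.9% of the members, 39.9% of measured genes and 37.9% of all promoters. TATAAA was found in 5.58%, 7.22% and 14.2%. The 250 bases upstream of the start are shown for Zfp266 and Zfp78, abundant and lower against low and higher, with GC boxes in capitals.
Zfp266: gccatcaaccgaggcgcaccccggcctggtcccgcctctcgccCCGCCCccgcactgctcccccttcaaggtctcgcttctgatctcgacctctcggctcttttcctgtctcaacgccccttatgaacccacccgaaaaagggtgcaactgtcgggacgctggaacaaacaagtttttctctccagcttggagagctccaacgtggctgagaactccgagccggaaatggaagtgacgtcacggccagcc
Zfp78: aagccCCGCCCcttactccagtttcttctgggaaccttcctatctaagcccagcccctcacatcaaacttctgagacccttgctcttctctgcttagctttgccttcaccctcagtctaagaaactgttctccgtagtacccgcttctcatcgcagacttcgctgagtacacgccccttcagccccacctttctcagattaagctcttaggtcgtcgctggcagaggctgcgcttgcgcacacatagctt
Zfp266 lies at chr9:20521420-20521669 on the minus strand and Zfp78 at chr7:6363058-6363307 on the plus strand. Each held a GC box on the strand opposite to the gene, and the 300 bases of the table held 23 CpG in Zfp266 and 13 in Zfp78. These letters are a description of the sequence, not of any factor bound there.

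Near the limit of 1 RPKM on the mean, the members just inside were Zfp931 (1.84 and 0.197 RPKM), Zfp532 (1.79 and 0.265 RPKM) and Zfp384 (1.24 and 0.82 RPKM). Just outside were Zfp9 (0.403 and 1.56 RPKM, 27 and 122 reads), Zfp498 (0.938 and 0.981 RPKM) and Zfp574 (1.09 and 0.824 RPKM). Zfp9 was thus higher in the DKO library and was not counted. Near-identical relatives limit some values: in 25 measured members at least 10% of the 100-base windows occur in transcripts of other genes. Their median was -0.65, and that of the 213 members with under 1% was -0.62.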

How the data were processed

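RNA from 1 p53 KO and 1 Utx/p53 DKO LSK library was compared, grouped by the genotype in the labels. The submitters' processing notes list TopHat2 2.1.0, bcl2fastq 1.8.4 and build mm9, and gfold 1.1.4 made the table, per the file headers (17088105 and 19926294 reads, constants 1.30144 and 1). Per the labels' protocols, cDNA was amplified with a SMART kit after oligo-dT selection, which can distort low values. Strand and multiple mapping in the counting were not given in the sources used here. Antisense partners can therefore share reads. The authors deposited RPKM for 28344 transcripts of 22020 symbols, a log2 fold change, a GFOLD value (also log2) and a q-value (E-FDR) of 1 in every row, which was not used. Columns were assigned by the order of libraries in the header.

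Differences are of log2(RPKM + 1), so the change of low genes is understated. Since each genotype has 1 library, no p-value was computed. Whole reads were recovered as the whole-number transcript length (50 to 40000 bases) at which both RPKM values are whole reads within their printed digits and give the authors' log2 fold change. There was 1 solution for 93.2% of 24644 transcripts with reads and none for 0.8%. On simulated data there was 1 solution for 93.3% of 1483 transcripts, and 100% of these were right.

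Fingers (C.{2,4}C.{12}H.{3,5}H) and KRAB A boxes were searched in translated GENCODE M21 coding sequences, since RefSeq protein sequences were not used here. The KRAB pattern was widened after known boxes were missed, without regard to expression. Members and lists were chosen with earlier results of these data known. Named members are the 15 largest increases, the 15 largest decreases, the 10 highest means, 3 on each side of the limit and all role lists. Genes named only in the account of neighbouring runs were added after their values were seen. Alternatives were pseudocounts (0.1 and 5), filters, scalings, fold rules, transcript choice, a minimum of 50 reads and a stricter KRAB pattern. Leaving out chromosome 2 was chosen after seeing the data. Python 3.11.15 with pandas 2.3.3, scipy 1.17.1 and Biopython 1.88 was used.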

Additional observations from a re-analysis of the deposited data

How the results depend on the processing

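The family's median difference stayed below 0 and below that of all genes in every setting run, by between -0.45 (pseudocount 0.1) and -0.18 (pseudocount 5), while counts followed the setting. Against 53, the members called lower were 92 with a pseudocount of 0.1, 7 with 5, 23 of 119 with a mean of at least 5 RPKM, 33 after centring on those genes, 100 with equal totals, 18 with the gfold constants, 138 with a 1.5-fold and 9 with a 3-fold rule. Against 2, those called higher were 0 with a pseudocount of 5, a mean of at least 5 RPKM or a 3-fold rule, 1 with equal totals, and 4 with the gfold constants or a 1.5-fold rule. Of these settings, shares over all genes are given above only for the main one and the gfold constants. The median of all genes moved too, to -0.55 with equal totals and 0.28 with the constants, so the other counts are not results about the family. In the order pseudocount 0.1, pseudocount 5, centring, equal totals, upper quartiles and gfold constants, the family's median was -0.72, -0.33, -0.42, -0.87, -0.47 and -0.12, and that of the KRAB members -0.85, -0.37, -0.51, -0.94, -0.58 and -0.23. Without a filter the family's median was -0.49. For the members without a KRAB box it was -0.32 with a pseudocount of 5, -0.30 after centring, -0.82 with equal totals, -0.35 with upper quartiles and, with its sign reversed, 0.0044 with the gfold constants. The lower corepressor genes, 4 at 2-fold, were 7 with equal totals and 11 with a 1.5-fold rule, for which shares over all genes are not given here either. With the stricter KRAB pattern (111 members with a box and 153 without) the medians were -0.69 and -0.51. The shares called lower were then nearly alike, at 20.7% and 19.6%, where 13.5% of all genes were. Of 75 named members, 18 changed sign with the gfold constants, 0 of them among those called at 2-fold. The cause of these shifts was not tested beyond the scaling itself. Depth limits the fold of genes with few remaining reads, as in Zfp534 with 1. No paired analysis was possible because there is 1 library per genotype, and for the same reason no replicate could be left out.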

Other observations

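The 69 Zfp genes under a mean of 1 RPKM summed to 29.9 RPKM in the control and 15.8 RPKM in the DKO library. Of these, 51 were lower and 15 higher in the DKO library, and 3 were listed at 0 in both. No reads were listed for 8 of them in the p53 KO and for 15 in the DKO library. Of the higher genes, Zfp105 had 6 reads (0.175 RPKM) in the control and 50 reads (1.25 RPKM) in the DKO library. Zfp93 (95 and 21 reads), Zfp30 (69 and 7 reads) and Zfp473 (80 and 17 reads) followed the direction of the family. These genes were chosen after their values were seen.

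Zfp36, which the naming rule leaves out, encodes the mRNA decay factor tristetraprolin, whose fingers bind AU-rich elements of RNA rather than DNA. It was at 265 RPKM (8002 reads) in the control and 59.8 RPKM (2103 reads) in the DKO library, a ratio of 0.225 with a counting interval of 0.215 to 0.236. Its difference of -2.13 on the log2(RPKM + 1) scale was larger than the decrease of any of the 266 members. By the ratio of RPKM, to which no 1 is added, some members were lower than Zfp36. Examples are Zfp599 at 0.108 (0.0777 to 0.148) and Zfp658 at 0.0966 (0.0612 to 0.146).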
